A study of Mus musculus with 8 samples.

Results

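RNA levels of 10 genes of the transforming growth factor-β (TGF-β) pathway were compared between IL-18Rαhi-enriched endogenous CD8+ T cells and the cells that ran through the same magnetic column. The genes were chosen by name among the 47493 entries of the expression table: the ligands Tgfb1 and Tgfb3, the receptors Tgfbr1, Tgfbr2 and Tgfbr3, the signal transducers Smad2, Smad3 and Smad4, and the inhibitors Smad7 and Skil. All 10 names were found once each. Smad3 rose 1.84-fold in the IL-18Rαhi fraction and Tgfbr3 fell to 0.637 times its flow-through level, and for both genes the libraries of the fractions did not overlap. The Smad3 call was lost when libraries were scaled to their T-cell genes (limma adjusted p = 0.087), while the Tgfbr3 call was kept. That scaling moved the median log2 change of all genes tested to -0.33. Relative to this median, Smad3 stood at 0.84 and Tgfbr3 at -0.51. The signaling receptors Tgfbr1 and Tgfbr2 also rose, and kept their calls with the mouse as a block. These calls were lost under the scaling to T-cell genes and, in fits without a block, when some single libraries were left out.

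Libraries came from 4 female C57BL/6 mice aged 6 to 8 weeks, and every mouse gave 1 library of each fraction (n = 4 per fraction). All mice had received 200000 B16F10 cells, a mouse melanoma line, on day 0, cyclophosphamide (300 mg/kg), which depletes lymphocytes, on day 3, and 2000000 Thy1.1 Pmel-1 cells on day 5. Pmel-1 cells are CD8+ T cells of a transgenic mouse whose receptor recognizes the melanoma antigen gp100. Recombinant human IL-2 (10000 IU) was given daily for 3 days from day 5, and anti-mouse CD4 antibody (GK1.5, 200 μg) weekly for 3 weeks from day 10. On day 25, Thy1.1-negative CD8+ T cells, which are the cells of the host, were purified from inguinal lymph nodes and spleen with beads, and those with high IL-18Rα were retained through a PE-labeled antibody. Both fractions therefore carry the whole regimen, untreated mice were not analysed here, and the flow-through is the control. Magnetic enrichment does not give a pure population, and in such bulk samples a change in the share of a cell type cannot be told apart from a change in RNA per cell.

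TGF-β is made as a latent precursor and released from its propeptide near the cell surface. The active ligand binds the type II receptor (Tgfbr2), which phosphorylates the type I receptor (Tgfbr1), while betaglycan (Tgfbr3) presents ligand without a kinase of its own. The type I receptor phosphorylates SMAD2 and SMAD3, which join SMAD4 and enter the nucleus, where SKI and SKIL oppose them. SMAD7 binds the receptors and blocks the signal. In CD8+ T cells the pathway is known to restrain proliferation and effector genes and to induce the integrin CD103 (Itgae).

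Levels are FPKM, fragments scaled by transcript length and by library size, so they can be compared roughly between genes. A log2 change is the difference of mean log2(FPKM + 1), IL-18Rαhi minus flow-through, and rose or fell is used for an adjusted p under 0.05 in limma over the 12166 genes whose mean reached 1 FPKM. Il18r1, the gene of the selected receptor, ran from 22.2 to 37.2 FPKM in the flow-through and from 107 to 116 FPKM in the enriched libraries. Each library had 11706 to 12288 genes at 1 FPKM or more, and low values placed the depth at 14500000 to 17300000 fragments. Flow-through replicate 1 was the lowest in T-cell genes: its summed level of 8 CD8 T-cell identity genes, among them Cd3e and Cd8a, was 1280 FPKM, while the remaining flow-through libraries had 2048 to 2427 and the enriched ones 2403 to 2578. Its summed level of 6 erythroid genes was 2374 FPKM, and the remaining flow-through libraries had 797 to 1331. Results that rest on this library are given with and without it, and as T-cell scaling, in which each library is divided by the geometric mean of its identity genes. Of these genes, Cd3e, Cd3g, Cd8a, Lck and Zap70 were themselves higher in the enriched libraries without overlap. Cd3d, Cd247 and Cd8b1 overlapped, and limma called 1 of the 8 higher. T-cell scaling thus lowers the enriched libraries beside the flow-through. It moved the all-gene median log2 change to -0.33, and to -0.15 without flow-through replicate 1.

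Of the 9 members above the filter, 4 rose and 1 fell, where 14.1% of all genes tested rose and 13.7% fell. The median log2 change was 0.26 for these 9 genes and -0.018 for all genes tested. Libraries of the fractions did not overlap for 4 higher members above the filter and for 1 lower member, beside 16.4% and 15.9% of those tested. Blocking on the mouse, 6 members rose and 2 fell, beside 22.2% and 22.7% of the genes tested. Without flow-through replicate 1 the numbers were 3 and 2, beside 14.1% and 13.1%. Under T-cell scaling, limma called 0 members higher (1 at an unadjusted p under 0.05) and 2 lower, beside 4.46% and 8.92% of all genes, and this scaling moved the median of all genes to -0.33. Without flow-through replicate 1, T-cell scaling left 1 member higher and 2 lower, beside 8.19% and 18.3%, and an all-gene median of -0.15. Block and T-cell scaling together gave 0 higher (1 at an unadjusted p under 0.05, limma) and 2 lower, beside 5.23% and 18.7%.

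**Figure D1:**
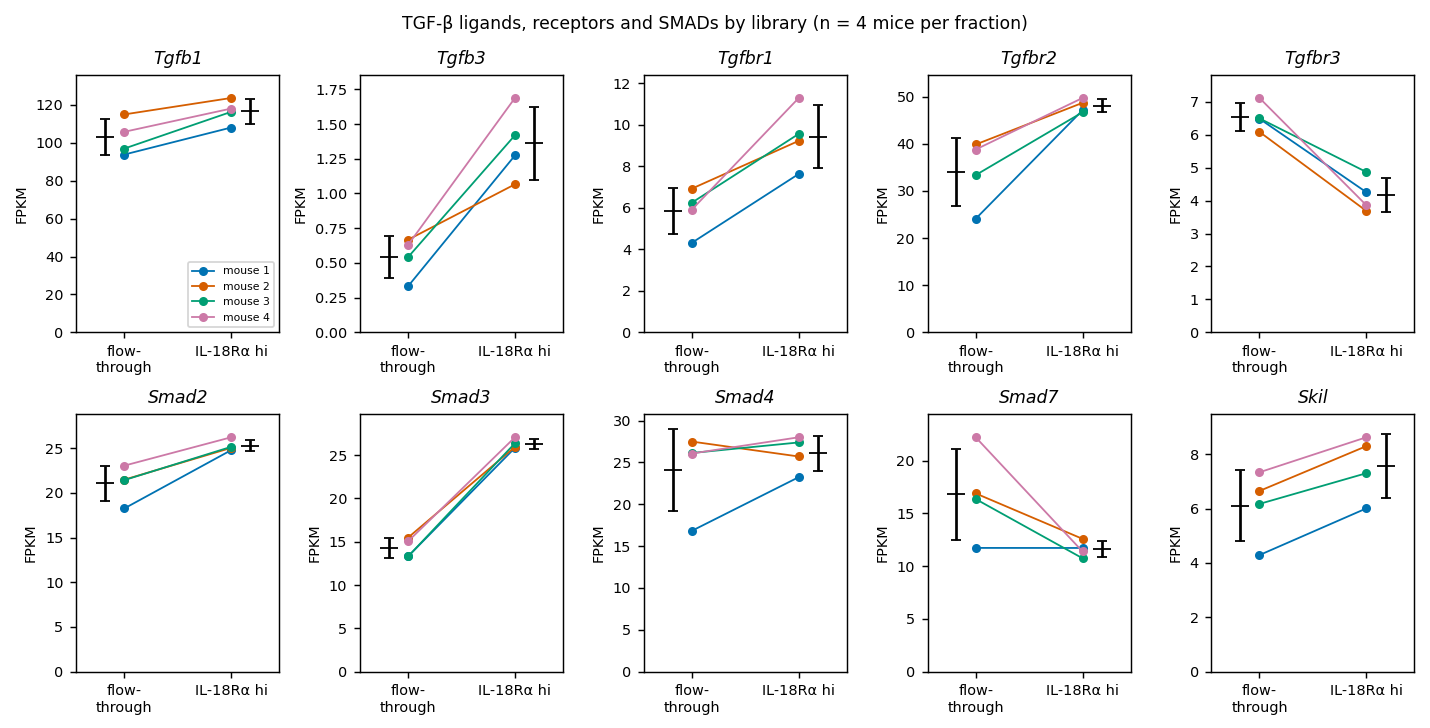
FPKM of the 10 members in each library, with 1 line per mouse from its flow-through to its IL-18Rαhi-enriched library, and the mean ± SD of 4 libraries as bars beside the points. Smad3 climbs in parallel in all 4 mice, from 13.3 to 15.5 up to 25.9 to 27.1 FPKM, while Tgfbr3 falls in all 4, and the flow-through library of mouse 1 is the lowest of its fraction for every member except Tgfbr3 and Smad3.

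Among the ligands, Tgfb1 was the most abundant member in both fractions. It encodes TGF-β1, the main form in lymphocytes and myeloid cells (mm10 chromosome 7, 25687002 to 25705077). It stood at 93.8, 115, 96.9 and 106 FPKM in flow-through replicates 1 to 4 and at 108, 124, 116 and 118 FPKM in the enriched replicates. The fractions overlapped, although the enriched library was the higher in 4 of 4 mice. The log2 change of 0.18 (SE 0.084) did not pass without a block (limma adjusted p = 0.142) and passed with the mouse as a block (0.0473), and T-cell scaling turned its sign (-0.16). Summed myeloid markers ran from 136 to 458 FPKM in the flow-through and from 431 to 1012 FPKM in the enriched libraries, with overlap. Lyz2 was most of this sum, at 99.0 to 347 and 338 to 811 FPKM. Csf1r overlapped at 5.14 to 18.4 and 8.76 to 24.2 FPKM, as did Cd14 at 1.14 to 3.58 and 1.74 to 4.29 FPKM. Of the 7 markers 5 rose, beside 14.1% of all genes tested, and their part in the Tgfb1 level was not tested. Platelet markers, which mark another store of TGF-β1, summed to 15.7 to 24.2 FPKM in the flow-through and 13.6 to 20.6 FPKM in the enriched libraries, and Ppbp and Gp1bb were under 1 FPKM in every library.

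Tgfb3, the gene of the TGF-β3 ligand (chromosome 12, 86056745 to 86079041), had a mean of 0.952 FPKM over the 8 libraries and was below the filter. Its values were 0.332, 0.667, 0.542 and 0.630 FPKM in the flow-through and 1.27, 1.07, 1.42 and 1.69 FPKM in the enriched libraries. Every enriched library was above every flow-through library, and the ratio of means was 2.51. When all 22789 genes with any value were tested, Tgfb3 was higher (log2 change 0.61, limma adjusted p = 0.0138; 0.0212 with the mouse as a block), beside 7.32% of genes (10.9% with the block). In the lower direction, 5.63% of genes passed without the filter and 9.36% with the block as well. With 1 annotated transcript of 3383 bases, these levels come to about 18 to 39 fragments per flow-through library and 60 to 83 per enriched library, so the fold is imprecise. Part of its exons overlaps short noncoding entries on the other strand, Gm37804 and Gm48008, which the counting could not separate. Markers of regulatory T cells summed to 9.85 to 27.4 FPKM in the flow-through and 34.5 to 84.4 FPKM in the enriched libraries, without overlap, with Foxp3 at 1.12 to 4.40 and 5.86 to 19.0 FPKM, and their part in the Tgfb3 level was not tested.

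The receptor genes moved in different directions. Tgfbr1, the type I receptor kinase (chromosome 4, 47353222 to 47414931), was at 4.31, 6.92, 6.24 and 5.91 FPKM in the flow-through and at 7.63, 9.22, 9.56 and 11.3 FPKM in the enriched libraries. No libraries of the fractions overlapped, and the mean rose from 5.85 ± 1.11 to 9.42 ± 1.4996 FPKM (SD, n = 4; log2 change 0.61, SE 0.15, limma adjusted p = 0.0195). The rise also passed with the mouse as a block (0.0036), whereas the fits that left out 1 library had no block. The call was lost without enriched replicate 2 (0.62, adjusted p = 0.0506), 3 (0.60, 0.0520) or 4 (0.53, 0.0561) and under T-cell scaling (0.31, 0.204, and 0.36, 0.0968 when flow-through replicate 1 was omitted).

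Tgfbr2, the type II receptor kinase that binds ligand (chromosome 9, 116084293 to 116175360), was at 24.1, 39.9, 33.4 and 38.8 FPKM in the flow-through and at 47.1, 48.7, 46.7 and 49.7 FPKM in the enriched libraries. The flow-through values were spread and the enriched ones close together, and the mean rose from 34.0 ± 7.21 to 48.1 ± 1.41 FPKM (log2 change 0.51, SE 0.15, limma adjusted p = 0.0337). The rise also passed with the mouse as a block (0.0119). Mouse 1, with the lowest flow-through value, had a within-mouse log2 difference of 0.94, against 0.28, 0.47 and 0.35 in mice 2 to 4. Without flow-through replicate 1 the log2 change was 0.36 (adjusted p = 0.0125), while T-cell scaling gave 0.17 (0.358), or 0.22 (0.0759) without that library. The call was also lost when flow-through replicate 3 was omitted (0.51, 0.0799) and without enriched replicate 1 (0.52, 0.0611), 2 (0.50, 0.0815), 3 (0.52, 0.0699) or 4 (0.49, 0.0840), and when all genes with any value were tested (0.0614).

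Tgfbr3, which encodes betaglycan (chromosome 5, 107106570 to 107289629, with part of its exons shared with the entry Gm43422), was the 1 receptor that fell. It was at 6.48, 6.08, 6.49 and 7.11 FPKM in the flow-through and at 4.25, 3.69, 4.87 and 3.86 FPKM in the enriched libraries. Every enriched library was below every flow-through library, and the mean fell from 6.54 ± 0.425 to 4.17 ± 0.524 FPKM (log2 change -0.55, SE 0.099, limma adjusted p = 0.0059). The fall passed in 8 of 8 fits that left out 1 library, with log2 changes from -0.61 to -0.50, and under T-cell scaling (-0.84, adjusted p = 0.0266). Relative to the all-gene median of each scaling, the difference was -0.53 as deposited and -0.51 under T-cell scaling. Flow-through replicate 1, which was low in T-cell genes, was not low in Tgfbr3.

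**Figure D2:**
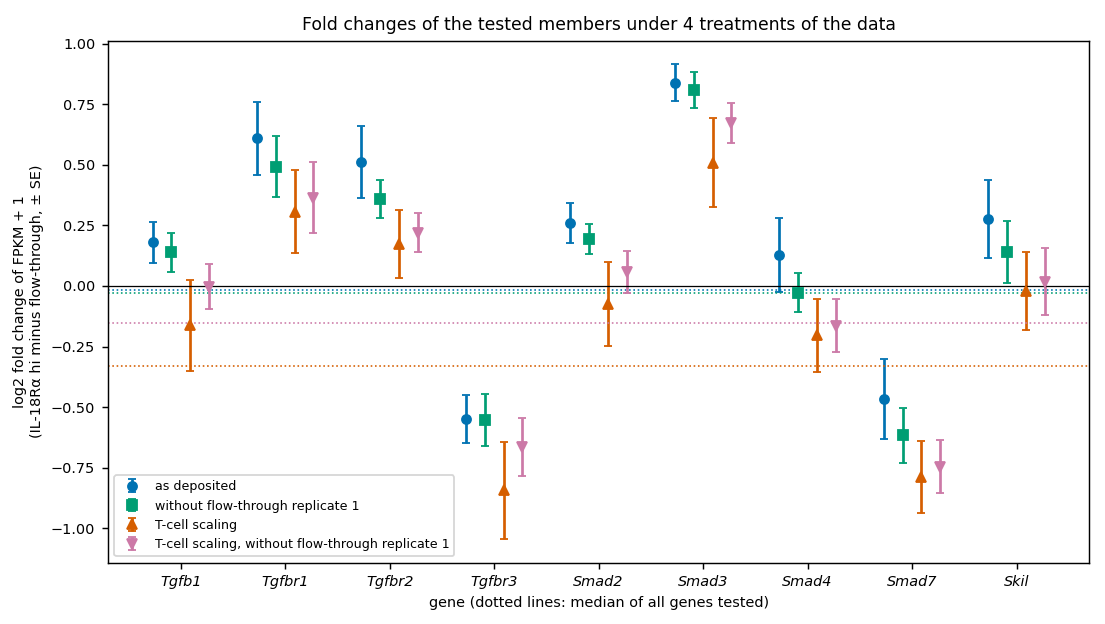
Log2 fold changes (± SE) of FPKM + 1 for the 9 members above the filter, on values as deposited, without flow-through replicate 1, under T-cell scaling and under T-cell scaling without that library, with dotted lines at the median of all genes tested in each. Smad3 lies between 0.51 and 0.84 and Tgfbr3 between -0.84 and -0.55 in the 4 treatments, while Tgfb1, Smad2, Smad4 and Skil lie on both sides of 0.

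Smad3 and Smad2 encode the transducers that the type I receptor phosphorylates, and SMAD3 binds DNA directly. Smad3 (chromosome 9, 63646767 to 63757994) was at 13.3, 15.5, 13.3 and 15.1 FPKM in the flow-through and at 25.9, 25.96, 26.4 and 27.1 FPKM in the enriched libraries. The gap between the fractions was wide beside the spread within them, and the mean rose from 14.3 ± 1.14 to 26.3 ± 0.552 FPKM (log2 change 0.84, SE 0.075, limma adjusted p = 0.00043). The within-mouse log2 differences were 0.91, 0.71, 0.94 and 0.81. The call held in 8 of 8 fits that left out 1 library, with log2 changes from 0.81 to 0.88. Under T-cell scaling the log2 change was 0.51 and did not pass (adjusted p = 0.087), and with this scaling and flow-through replicate 1 left out it was 0.67 and passed (0.0013). Relative to the all-gene median of each scaling the difference was 0.86 as deposited, 0.84 under T-cell scaling and 0.83 under T-cell scaling without flow-through replicate 1.

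Smad2 (chromosome 18, 76241580 to 76310963) was at 18.3, 21.5, 21.4 and 23.1 FPKM in the flow-through and at 24.8, 25.0, 25.2 and 26.2 FPKM in the enriched libraries. The fractions did not overlap, but the rise from 21.1 ± 2.01 to 25.3 ± 0.635 FPKM was small (log2 change 0.26, SE 0.082, limma adjusted p = 0.0468). The rise also passed with the mouse as a block (0.0249). The call was lost in 7 of the 8 fits without 1 library, where adjusted p was lowest at 0.0533 when flow-through replicate 1 was omitted and highest at 0.118 when enriched replicate 4 was, and held without flow-through replicate 4 (0.0381). It was also lost when all genes with any value were tested (0.0593) or without a variance trend (0.0556), and the sign was the opposite under T-cell scaling (-0.075; leaving out flow-through replicate 1 as well gave 0.058).

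The balance of the 2 transducers, which does not depend on how a library is scaled, did not overlap between the fractions. The ratio of Smad3 to Smad2 FPKM was 0.729, 0.721, 0.621 and 0.653 in the flow-through and 1.04, 1.04, 1.05 and 1.03 in the enriched libraries. Smad3 FPKM was thus below Smad2 FPKM in 4 of 4 flow-through libraries and slightly above it in 4 of 4 enriched ones. Because FPKM depends on the transcript length used for each gene, ratios of 1.03 to 1.05 do not rank the 2 genes. The means were 0.681 ± 0.0526 and 1.04 ± 0.00728, and no test was run on ratios. The ratio of the receptor kinases, Tgfbr2 to Tgfbr1, overlapped between the fractions (5.34 to 6.56 against 4.41 to 6.18) and was lower in the enriched library in 3 of 4 mice. The ratio of the ligands, Tgfb3 to Tgfb1, was 0.00355 to 0.00596 in the flow-through and 0.00863 to 0.0143 in the enriched libraries, so Tgfb3 remained far below Tgfb1 in both.

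**Figure D3:**
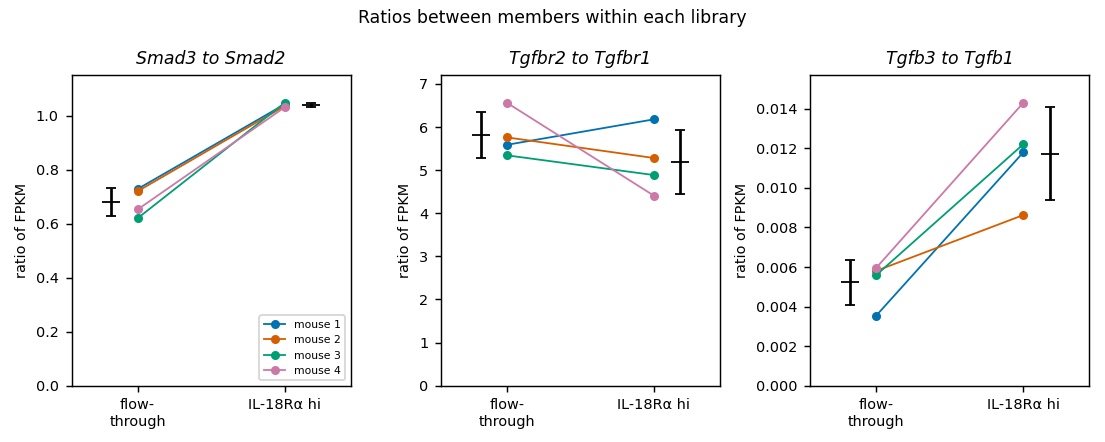
Ratios of FPKM between pairs of members within each library, with 1 line per mouse and the mean ± SD of 4 libraries as bars beside the points. Smad3 to Smad2 lies between 0.621 and 0.729 in the flow-through and close to 1.04 in every IL-18Rαhi-enriched library, and Tgfbr2 to Tgfbr1 overlaps between the fractions.

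Promoters are shown for Smad3, Tgfbr1 and Tgfbr2, which are among the members called higher, from the RefSeq promoter table (GRCm38.p6). Each line gives the 250 bases before the transcript start, 5′ to 3′ on the strand of the gene. Capitals mark the SMAD-binding element CAGAC, the GC box GGGCGG, which SP1 binds, and the T-box motif AGGTGTGA, each searched on both strands; none of these motifs overlaps another here.
Smad3, chr9:63757995-63758244 (minus strand): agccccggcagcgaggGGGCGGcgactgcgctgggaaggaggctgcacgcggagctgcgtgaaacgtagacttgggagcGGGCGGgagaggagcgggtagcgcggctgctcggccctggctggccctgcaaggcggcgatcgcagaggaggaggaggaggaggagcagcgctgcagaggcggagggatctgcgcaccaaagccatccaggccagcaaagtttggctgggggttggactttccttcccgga
Tgfbr1, chr4:47352972-47353221 (plus strand): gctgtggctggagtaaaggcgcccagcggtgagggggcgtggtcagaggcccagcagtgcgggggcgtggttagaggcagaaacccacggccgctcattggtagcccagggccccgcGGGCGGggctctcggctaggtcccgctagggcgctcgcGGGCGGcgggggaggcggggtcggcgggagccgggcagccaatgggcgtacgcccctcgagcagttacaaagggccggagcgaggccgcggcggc
Tgfbr2, chr9:116175364-116175613 (minus strand): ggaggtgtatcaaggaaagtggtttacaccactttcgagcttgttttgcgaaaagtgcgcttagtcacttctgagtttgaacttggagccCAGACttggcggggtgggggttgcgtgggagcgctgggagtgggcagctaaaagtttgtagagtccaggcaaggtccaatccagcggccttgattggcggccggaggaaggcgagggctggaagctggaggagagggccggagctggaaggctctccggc
Tgfbr1 has a second start in the table, whose window (chr4:47385966-47386215, 32994 bases from the GENCODE start) is not printed. The printed windows of Smad3 and Tgfbr1 each held 2 GC boxes and no SMAD-binding element, and GC boxes were found in 32.7% of the 32851 promoter windows of this length. Tgfbr2 and the second window of Tgfbr1 each held 1 SMAD-binding element, found in 42.2% of windows, and no GC box. The T-box motif, in 1.1% of windows, was in none of these 4 windows. GC content was 69.2% for Smad3, 74.8% and 52.8% for the first and second windows of Tgfbr1 and 58.4% for Tgfbr2, against a median of 52.4% over all windows. A match of letters is a description and does not show binding.

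Smad4, the partner shared by all SMAD complexes (chromosome 18, 73639009 to 73703780), was at 16.8 to 27.5 FPKM in the flow-through and 23.2 to 28.0 FPKM in the enriched libraries. The fractions overlapped almost wholly, and flow-through replicate 1 alone was below the enriched range. The log2 change was 0.13 (SE 0.15, limma adjusted p = 0.553), and the sign was opposite when replicate 1 of the flow-through was omitted (-0.028) or under T-cell scaling (-0.20).

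Smad7 encodes the inhibitory SMAD, which is itself induced by TGF-β (chromosome 18, 75367529 to 75395935). It was at 11.7, 16.9, 16.4 and 22.2 FPKM in the flow-through and at 11.7, 12.6, 10.7 and 11.4 FPKM in the enriched libraries. The enriched libraries lay close together and below flow-through replicates 2 to 4, while the values of mouse 1 were nearly equal (within-mouse log2 difference -0.00050). The log2 change of -0.47 (SE 0.16) did not pass (limma adjusted p = 0.0653). It passed with the mouse as a block (0.035), when flow-through replicate 1 was left out (-0.62, 0.0074) and under T-cell scaling with (-0.79, 0.0118) or without that library (-0.75, 0.0028), but not with the block and no filter (0.107). The other 7 fits that left out 1 library gave adjusted p from 0.105 to 0.142. Relative to the all-gene median of each scaling, the difference was -0.45 as deposited and -0.46 under T-cell scaling.

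Skil encodes SnoN, a corepressor of SMAD complexes and likewise a target of the pathway (chromosome 3, 31095058 to 31122577). It was at 4.29 to 7.33 FPKM in the flow-through and 6.00 to 8.62 FPKM in the enriched libraries, and was the higher in the enriched library of 4 of 4 mice although the fractions overlapped. The log2 change was 0.28 (SE 0.16, limma adjusted p = 0.231), which passed with the mouse as a block (0.0302; 0.0655 with no filter as well). Under T-cell scaling it was -0.021, and 0.017 without flow-through replicate 1.

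In order of level, Tgfb1 was first and Tgfbr2 second in both fractions, at 103 and 34.0 FPKM in the flow-through and 116 and 48.1 FPKM in the enriched fraction, and Tgfb3 was last. In the flow-through the ranges of neighbours overlapped from Tgfbr2 through Smad4, Smad2 and Smad7 to Smad3, and again from Tgfbr3 through Skil to Tgfbr1. In the enriched fraction Smad3, Smad4 and Smad2 were level with each other at 26.3, 26.1 and 25.3 FPKM, below Tgfbr2 and above Smad7 without overlap. Tgfbr3 moved from seventh place to ninth, at 4.17 FPKM, below every library of Skil and Tgfbr1.

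The genes whose profile over the 8 libraries was nearest to that of Smad3, by the root mean square difference of centred log2(FPKM + 1), were Map6 (0.060), Efhd2 (0.067) and Cldnd1 (0.069). Efhd2 was at 63.6 to 69.9 FPKM in the flow-through and 124.5 to 135 FPKM in the enriched libraries, Cldnd1 at 34.0 to 44.9 and 72.6 to 75.3 FPKM, and Map6 at only 0.355 to 0.575 and 1.40 to 1.90 FPKM. Nearest to Tgfbr3 were Thumpd1 (0.071), Thumpd2 (0.072) and Pank4 (0.076), at means of 35.8, 7.29 and 32.1 FPKM in the flow-through and 26.02, 4.73 and 23.1 FPKM in the enriched fraction. A profile over 4 libraries of each of 2 fractions is set mainly by the difference between them.

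Of 61 other pathway genes, 41 were above the filter, and 12 rose and 3 fell, beside 14.1% and 13.7% of all genes tested. With the mouse as a block 16 rose and 6 fell, beside 22.2% and 22.7%, and under T-cell scaling 3 rose and 4 fell, beside 4.46% and 8.92%. Of 12 genes of ligand processing and activation, 3 were above the filter. Furin, the protease that cleaves the TGF-β precursor, rose from 17.9 ± 2.25 to 28.3 ± 4.18 FPKM (log2 change 0.63, SE 0.13, limma adjusted p = 0.0093), without overlap. Under T-cell scaling it did not pass (0.30, adjusted p = 0.251, or 0.42, 0.0503 with replicate 1 of the flow-through omitted). Itgav and Nrros, which encode an integrin chain and a latent TGF-β anchor, had log2 changes of 0.72 (adjusted p = 0.0589) and 0.23 (0.294) and passed with the mouse as a block (0.0074 and 0.0412). Itgav also passed without flow-through replicate 1 (0.46, 0.0318) or 4 (0.86, 0.0423), and T-cell scaling turned the sign of Nrros (-0.12). The anchor of regulatory T cells, Lrrc32 (GARP), was below the filter at 0.231 to 0.496 FPKM in the flow-through and 0.784 to 1.93 FPKM in the enriched libraries.

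Of 13 activin and bone morphogenetic protein (BMP) receptors and SMADs, 6 were above the filter, and 1 rose and 1 fell, beside 14.1% and 13.7% of all genes tested. Eng, the gene of endoglin, a coreceptor related to betaglycan, fell from 28.4 ± 13.4 to 8.68 ± 3.36 FPKM (log2 change -1.57, SE 0.32, limma adjusted p = 0.0089), and passed in 8 of 8 fits that left out 1 library (-1.78 to -1.29) and under T-cell scaling (-1.90). It was at 48.4 FPKM in flow-through replicate 1 and 20.3 to 24.2 FPKM in flow-through replicates 2 to 4. The erythroid sum overlapped between the fractions, at 797 to 2374 FPKM in the flow-through and 192 to 1310 FPKM in the enriched libraries. Of its 6 markers limma called only Car1, which fell from a mean of 882 to 153 FPKM, beside 13.7% of all genes tested. The other erythroid markers overlapped, and Hbb-bt had the higher mean in the enriched fraction (61.6 against 51.0 FPKM). The part of erythroid cells in the Eng level was not tested. Acvr1, a type I receptor for BMPs, rose from 0.844 ± 0.326 to 1.73 ± 0.254 FPKM (0.58, adjusted p = 0.0256), and was not called without flow-through replicate 3 or enriched replicate 2 or 4 (adjusted p up to 0.0746) or under T-cell scaling (0.40, 0.0914). Its flow-through mean was below 1 FPKM, so it passed the filter only through the enriched libraries, and it is the 1 riser counted in this list. Smad1 and Smad5, the BMP transducers, had log2 changes of -0.042 and -0.018, with SE 0.17 and 0.11.

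Of 24 SMAD regulators and cofactors, 22 were above the filter, and 6 rose and 2 fell, beside 14.1% and 13.7% of all genes tested. Runx1 (log2 change 0.63) and Runx3 (0.56), transcription factors that partner with SMADs, rose from 21.7 ± 3.96 to 33.9 ± 4.11 and from 36.5 ± 5.19 to 54.1 ± 1.99 FPKM, and Ski (0.61), the corepressor related to Skil, rose from 20.1 ± 3.399 to 30.8 ± 1.85 FPKM, with limma adjusted p of 0.0128, 0.0058 and 0.0086. Tab2 (0.40), an adaptor of the kinase TAK1, rose from 44.2 ± 2.84 to 58.5 ± 2.76 FPKM (0.0064). These 4 genes passed in 8 of 8 fits that left out 1 library and did not pass under T-cell scaling (0.30, 0.23, 0.28 and 0.059). With flow-through replicate 1 also left out, Runx1 (0.45), Runx3 (0.36) and Ski (0.37) passed and Tab2 (0.21) did not, with adjusted p of 0.0435, 0.0265, 0.0177 and 0.126. Cited2 (0.59, adjusted p = 0.0456), a coactivator partner, and Crebbp (0.40, 0.0477), a histone acetyltransferase, passed in only 1 and 2 of the 8, with adjusted p up to 0.121 and 0.119. Usp11, a deubiquitinase that acts on the type I receptor, fell from 22.5 ± 3.19 to 14.4 ± 0.819 FPKM (-0.60, SE 0.11, adjusted p = 0.0056), passed in 8 of 8 such fits and passed under T-cell scaling (-0.93, 0.0104). Tab1, another adaptor of TAK1, fell (-0.31, 0.0409) but passed in 1 of the 8, without flow-through replicate 2 (0.0313), with adjusted p up to 0.109 in the others. TAK1 itself (Map3k7) was at 18.8 to 20.3 and 17.4 to 21.2 FPKM (0.0031, SE 0.078).

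Of 12 TGF-β-responsive genes, 10 were above the filter and 4 rose, beside 14.1% of all genes tested. No direction of response was set for the genes of this list. Itgae, which encodes CD103, rose from 42.9 ± 11.2 to 80.1 ± 5.25 FPKM (log2 change 0.92, SE 0.18, limma adjusted p = 0.0083). Its libraries were at 27.9, 48.8, 41.3 and 53.5 FPKM in the flow-through and at 77.6, 79.9, 75.4 and 87.5 FPKM in the enriched fraction, without overlap, and it also rose under T-cell scaling (0.58, adjusted p = 0.0287; 0.0633 when the block was added). Id2 (1.63, adjusted p = 0.0019) and Bhlhe40 (1.34, 0.0062), regulators of transcription in effector T cells, rose from 104 ± 29.4 to 312 ± 29.9 and from 15.5 ± 5.02 to 39.8 ± 7.32 FPKM, and passed under T-cell scaling (1.28 and 1.02). Tgfbi (1.22, SE 0.36, adjusted p = 0.0364), which macrophages also express, overlapped between the fractions at 6.38 to 18.4 and 15.8 to 41.0 FPKM, was lost in 6 of the 8 fits without 1 library (adjusted p up to 0.0966), and the libraries of each fraction had the same order as the summed myeloid markers. The part of myeloid cells in the Tgfbi level was not tested. Cdkn1a, a cell-cycle inhibitor, overlapped between the fractions at 3.37 to 6.95 and 6.66 to 9.63 FPKM and was the higher in the enriched library of 4 of 4 mice. Its log2 change of 0.62 did not pass (limma adjusted p = 0.0555), passed with the mouse as a block (0.0027), and was 0.33 under T-cell scaling (0.218). Id1 (0.35, adjusted p = 0.452) and Id3 (0.23, 0.457) were not called, nor were Pmepa1 (-0.31, adjusted p = 0.297), Ldlrad4 (0.074, 0.788) and Junb (-0.0094, 0.979), which are induced by SMADs in many cells. The 4 genes that rose are controlled by several pathways, and the list does not measure TGF-β signaling.

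**Figure D4:**
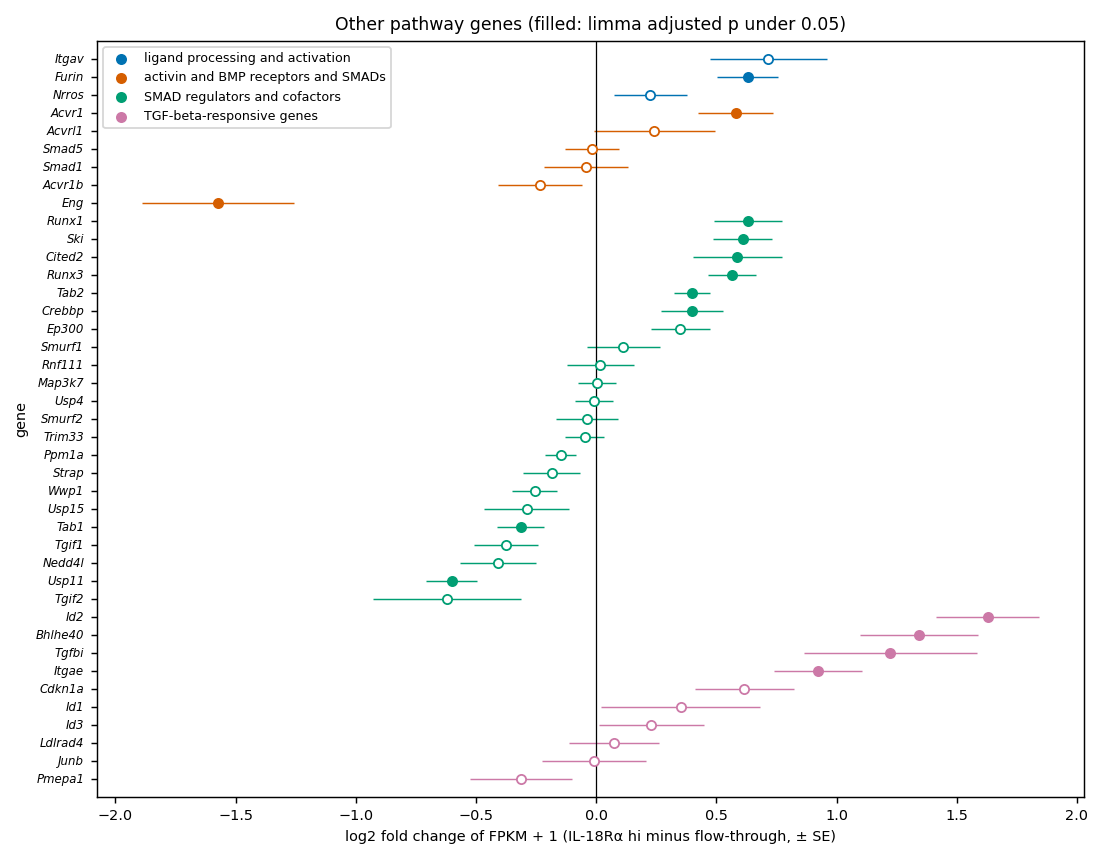
Log2 fold changes (± SE) of FPKM + 1 for the 41 other pathway genes above the filter, grouped by list, with filled points for a limma adjusted p under 0.05. Id2 (1.63) and Bhlhe40 (1.34) lie highest and Eng (-1.57) lowest, and the SMAD regulators run from 0.63 (Runx1) to -0.62 (Tgif2) with 8 of 22 filled.

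Genes listed as markers of other cells were also summed. NK-cell markers summed to 19.1 to 40.6 FPKM in the flow-through and 77.9 to 146 FPKM in the enriched libraries, and 4 of the 5 above the filter rose, beside 14.1% of all genes tested. Klrk1 was a large part of the enriched sum, at 45.1 to 70.1 FPKM against 7.07 to 17.9 FPKM in the flow-through. Eomes overlapped at 9.82 to 15.8 and 13.4 to 14.6 FPKM. The paper counts Ncr1, Klrb1c and Klrk1, and Blk of the γδ list, among genes raised in the IL-18Rαhi-enriched T cells. These sums therefore do not mark NK or γδ T cells alone. γδ T-cell markers ran from 67.1 to 96.5 and from 88.7 to 193 FPKM, and B-cell markers overlapped at 19.6 to 53.4 and 25.96 to 65.2 FPKM. Stromal markers summed to 16.6 to 32.6 and 19.2 to 27.6 FPKM, nearly all of it Pecam1, and Col1a1, Col1a2 and Col3a1 were under 1 FPKM in every library. Whether these RNAs came from other cells or from CD8+ T cells was not tested, nor was their part in the member levels.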

How the data were processed

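Poly(A) RNA of 8 libraries was sequenced as stranded paired ends. The deposited values are FPKM, which the authors made by removing low-quality reads, mapping to mm10 with TopHat and estimating levels with Cufflinks 2.1.1, with multi-read and fragment bias correction. Other options were at their defaults, which do not use the strand, so genes that overlap on opposite strands are uncertain. The annotation release is not given in the sources used here. Coordinates and lengths come from GENCODE M21 (mm10), which held 98.9% of the gene identifiers. Of 2 listed names with a second entry, Ltbp4 and Itgam, the entry of the higher mean was used. The promoter of Smad2, also called higher, was not among those examined.

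FPKM are not counts, so no count model was applied. Depth was estimated from genes that have 1 transcript, at least 1500 bases long, and under 0.2 FPKM, as the value that 1 fragment gives. Fractions were compared with limma 3.58.1 in R 4.3.3 (variance trend, two-sided) on log2(FPKM + 1), a scale that understates changes of low genes, over genes whose mean reached 1 FPKM, without a block. Benjamini-Hochberg adjustment ran over all genes tested, with a threshold of 0.05. The procedure was tested on simulated data.

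Sample titles gave the fraction and the replicate number. By the labels both fractions were taken from each of 4 mice, and that a shared number marks the same mouse was read from the titles. Deviations from the fraction means correlated across genes at 0.66, 0.589, 0.308 and 0.471 for mice 1 to 4. A block for the mouse was the paired alternative. Other alternatives, all without a block, were pseudocounts of 0.1 and 5, no filter or one at 5 FPKM, T-cell scaling, median-ratio scaling, no variance trend and leaving out each library. T-cell scaling without flow-through replicate 1, and the block with T-cell scaling or with no filter, were chosen after seeing the data. The members and gene lists were chosen with earlier results of these data known. Named genes were the 10 members, in each other pathway list up to 5 genes past the threshold in each direction by size of change, and the 3 nearest profiles to the members of the highest and lowest fold change. Itgav, Nrros, Lrrc32, Smad1, Smad5, Map3k7, Tgif2, Cdkn1a, Id1, Id3, Pmepa1, Ldlrad4 and Junb, and Crebbp as the sixth riser of its list, were named after their values were seen.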

Additional observations from a re-analysis of the deposited data

Results flagged for a closer look

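Within each fraction, 74 groups of 4 libraries were examined for 1 library apart from the others by Dixon's criterion at the 95% level, and 3 groups held one, where chance gives 3.7. In flow-through replicate 1, Smad4 stood at 16.8 FPKM, below the 26.1 to 27.5 FPKM of the remaining 3. Eng in the same library reached 48.4 FPKM, above the 20.3 to 24.2 FPKM elsewhere in the flow-through, and the ratio of Tgfb3 to Tgfb1 there was 0.00355, against 0.00559 to 0.00596. All 3 values are from the library with the lowest level of T-cell identity genes. The summed T-cell identity and erythroid genes were among the groups examined, and this library was not flagged for either sum.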

How the results depend on the processing

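Smad3 and Tgfbr3 kept their direction in every alternative. Smad3 lost its call under T-cell scaling alone and with the block (adjusted p = 0.087 and 0.126), and Tgfbr3 kept its call in all. T-cell scaling also moved the median log2 change of all genes to -0.33, toward lower values. The members called higher, 4 as reported, numbered 0 under T-cell scaling and 0 when the block was added (limma; 1 at an unadjusted p under 0.05 in each), 1 when flow-through replicate 1 was left out of it, and 1 to 4 in the fits that left out 1 library. The members called lower, 1 as reported, numbered 2 with the mouse as a block, 2 under T-cell scaling, with the block or without flow-through replicate 1 too, and 1 to 2 in the fits that left out 1 library. Signs reversed under T-cell scaling for Tgfb1 (-0.16, or -0.0026 without flow-through replicate 1), Smad2 (-0.075), Smad4 (-0.20, or -0.16) and Skil (-0.021), with the same values when the block was added, and for Smad4 without flow-through replicate 1 (-0.028, in a range up to 0.20 when other libraries were left out). Among other pathway genes, 12 higher became 3 under T-cell scaling, 3 with the block added and 6 without flow-through replicate 1, and 3 lower became 6 with the block, 5 with the block under T-cell scaling or with no filter, and 6 under T-cell scaling without flow-through replicate 1. In the fits that left out 1 library they numbered 8 to 13 higher and 2 to 4 lower. Over all genes, 1720 higher and 1664 lower became 2705 and 2763 with the mouse as a block and 542 and 1085 under T-cell scaling. They became 636 and 2280 with the block under T-cell scaling, and 996 and 2229 under T-cell scaling without flow-through replicate 1. Leaving out 1 library gave 1124 to 1802 higher and 940 to 1781 lower genes. Besides Tgfb1, Smad7 and Skil, the block changed the call of no tested member. The cause of these changes was not tested. Tgfb3 is limited by depth, and a fit without 1 library has fewer samples.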
